A study of Mus musculus with 22 samples.

Results

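The accessible regions described here lay in 2 stretches of the mouse genome that are named for clustered forkhead genes. The window for Foxq1, Foxf2 and Foxc1 ran from 31.58 to 31.98 Mb of chromosome 13, and the window for Foxc2 and its forkhead neighbours from 123.56 to 123.72 Mb of chromosome 8, both in mm9. A region belonged to a window if its midpoint lay inside. The windows held 44 of 50178 peaks in the gTKO list and 52 of 58311 peaks in the control list, 96 of 108489 peaks in all. ATAC-seq, which maps open chromatin by where a transposase inserts sequencing adapters, was applied to endothelial cells sorted from the retinas of pups at postnatal day 6, with 3 libraries per genotype. The gTKO pups were S1pr3-/- S1pr1flox/flox S1pr2flox/flox with Rosa26-CreERT2, and the control pups carried the same alleles without the recombinase. Both genotypes had a C57BL/6 background, both lacked S1pr3, which like S1pr1 and S1pr2 encodes a receptor for the lipid mediator sphingosine 1-phosphate, and both received 100 µg tamoxifen by intraperitoneal injection between postnatal days 1 and 3. Rosa26-CreERT2 is active in most cell types, so excision of S1pr1 and S1pr2 was not limited to endothelium, and no group carried the recombinase without the floxed alleles. Each library pooled the retinas of 4 to 6 pups, and 5000 to 8000 sorted cells entered the reaction. The labels also call the cells adult, against the stated age.

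Forkhead factors bind DNA through a winged-helix domain, and several of their genes sit side by side in mammalian genomes. Foxc1 and Foxc2 are closely related activators needed for vessel formation, arterial specification and lymphatic development. Foxf2 acts in brain pericytes and in the endothelium of the blood-brain barrier, and Foxq1 is a forkhead gene with enriched expression in endothelium of the central nervous system. In RefSeq order, Foxq1, Foxf2 and Foxc1 follow each other on chromosome 13 with only non-coding genes annotated between them, and Gmds, a gene of GDP-fucose synthesis, comes next. On chromosome 8 the order is Fendrr, a long non-coding RNA, Foxf1, Mthfsd, Foxc2 and Foxl1. An mm9 gene annotation was not used here, so peaks are given by position and are not assigned to a gene, promoter or exon, and the labelled cell type was not checked against its marker genes.

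RefSeq promoters, from 250 bases before to 50 after the gene start, were matched for 2 of the 6 forkhead genes, Foxf2 and Foxc1. They are shown because both genes name the chromosome 13 window, and they belong to the build GRCm38.p6, whose positions cannot be set beside the mm9 positions of the peaks. The lines give the plus strand of chr13:31625566-31625865 and chr13:31806396-31806695 in that build, with matches to the motifs searched in capitals.
Foxf2: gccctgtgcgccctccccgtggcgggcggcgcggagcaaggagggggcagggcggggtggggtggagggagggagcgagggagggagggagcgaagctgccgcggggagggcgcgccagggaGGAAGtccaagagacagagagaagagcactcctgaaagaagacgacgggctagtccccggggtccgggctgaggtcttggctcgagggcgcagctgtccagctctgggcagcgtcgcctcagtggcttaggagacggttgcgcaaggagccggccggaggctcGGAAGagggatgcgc
Foxc1: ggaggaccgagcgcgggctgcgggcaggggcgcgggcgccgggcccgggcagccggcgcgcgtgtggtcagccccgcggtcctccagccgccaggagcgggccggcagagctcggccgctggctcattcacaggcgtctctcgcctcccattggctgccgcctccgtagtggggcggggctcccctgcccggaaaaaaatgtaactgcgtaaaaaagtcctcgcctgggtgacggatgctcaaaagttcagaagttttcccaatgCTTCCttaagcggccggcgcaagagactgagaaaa
The motifs searched on both strands were TGANTCA for AP-1, TGTTTAC for forkhead factors, GGAAG for ETS factors and ACAAT for SoxF factors. In these 2 stretches of 300 bases only the ETS letters were found, 2 times for Foxf2 and 1 time, as CTTCC, for Foxc1. Of all 32851 promoters in the table, 71.4% held the ETS letters, 31.0% the SoxF letters, 7.81% the AP-1 letters and 3.65% the forkhead letters. Both promoters were rich in G and C, at 71.3% for Foxf2 and 67.3% for Foxc1 against a median of 52.7%, and they held 27 CG dinucleotides for Foxf2 and 32 for Foxc1 against a median of 7.

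The authors deposited 1 list of peak positions per genotype, with no score, fold enrichment or p-value. There was thus no replicate error, no test between genotypes was possible, and all values describe these lists. Read depth is unknown for both lists, and shallower sequencing or a weaker signal leaves fewer and shorter peaks. On the placed chromosomes, 49558 gTKO regions had a mean width of 489 bp and covered 24228335 bp, and 57267 control regions had a mean width of 549 bp and covered 31429579 bp, a length ratio of 0.771. This difference of the whole lists runs the same way as the differences below, whose part due to depth was not tested.

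In the Foxq1, Foxf2 and Foxc1 window, accessible sequence was called less extensively in gTKO cells, and no region was called in gTKO cells alone. The gTKO list held 30 regions with a mean width of 583 bp that covered 17486 bp, and the control list held 38 regions with a mean width of 681 bp that covered 25876 bp. The length ratio of gTKO over control was 0.676. A region is called shared here where at least 1 bp overlapped any region in the list of the other genotype, and gTKO-only or control-only otherwise. Of the 30 gTKO regions, 0 were gTKO-only, a count that still permits a share of 10.0% if 3 counts are taken as the limit (the exact interval ends at 11.6%), beside 9.75% of all placed gTKO regions. Of the 38 control regions, 16 were control-only, or 42.1% (95% Clopper-Pearson interval 26.3 to 59.2%), beside 27.0% of all placed control regions. After peaks within 200 bp were merged, the count was 8 of 29 (27.6%), beside 23.7% of all control regions merged in the same way. The lower end of the interval for the unmerged regions lay just under the value for the whole list. Intervals cover counting error only and treat neighbouring regions as independent. Of the sequence called in gTKO cells in this window, 99.3% was also called in control cells, and 67.1% of the sequence called in control cells was also called in gTKO cells. Over all placed chromosomes these shares were 92.8% of the gTKO sequence and 71.5% of the control sequence.

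**Figure D1:**
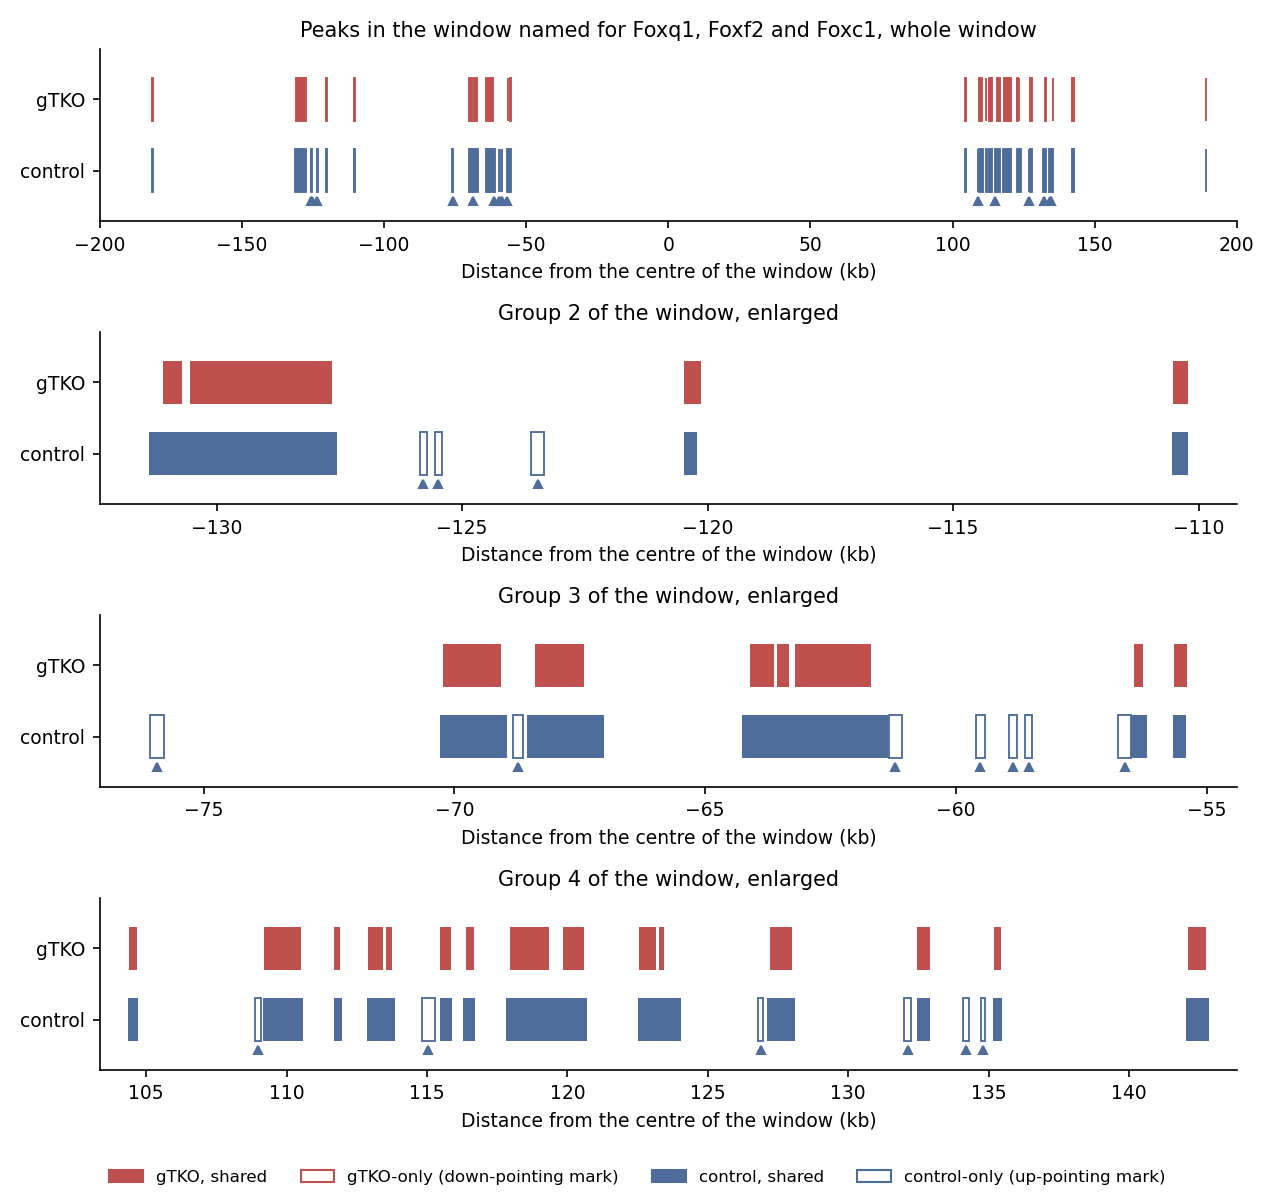
Positions of peaks in the chromosome 13 window, in kb from the window's centre, for the gTKO list (upper track, red) and the control list (lower track, blue), with 3 dense groups enlarged. Filled boxes overlap a peak of the other list and open boxes with a mark do not; all 16 marked peaks are in the control track, and a run of 5 of them follows the widest peak of group 3. The first of this run lies 21 bp after that control peak and the last 18 bp before the next shared control peak.

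Along the chromosome the regions of both lists fell into the same groups, separated where the gap exceeded 10 kb. Single shared regions stood near either end, at chr13:31598162-31598609 and chr13:31969011-31969228, where the gTKO length was 387 bp (0.884 of the control length) and 150 bp (0.688 of the control length). The other 36 loci formed 3 dense groups. A locus here is a stretch covered by overlapping regions of either list. The second group spanned 21.2 kb (chr13:31648623-31669779), the third 20.7 kb (chr13:31703932-31724600) and the fourth 38.5 kb (chr13:31884354-31922838). Between the third and the fourth group lay 159753 bp with no region in either list.

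The 3 dense groups differed in how much of the control length was called in gTKO cells. In the second group, 5 gTKO regions covered 3907 bp and 6 control regions covered 4964 bp, a ratio of 0.787. In the third group, 7 gTKO regions covered 4796 bp and 12 control regions covered 7793 bp, a ratio of 0.615. In the fourth group, 16 gTKO regions covered 8246 bp and 18 control regions covered 12463 bp, a ratio of 0.662. The ratio was thus near that of the whole lists in the second group and below it in the other two. Control-only regions made up 3 of 6 control regions in the second group, 7 of 12 in the third and 6 of 18 in the fourth. The share over all placed control regions was 27.0%. Differences between these small groups were not tested.

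**Figure D2:**
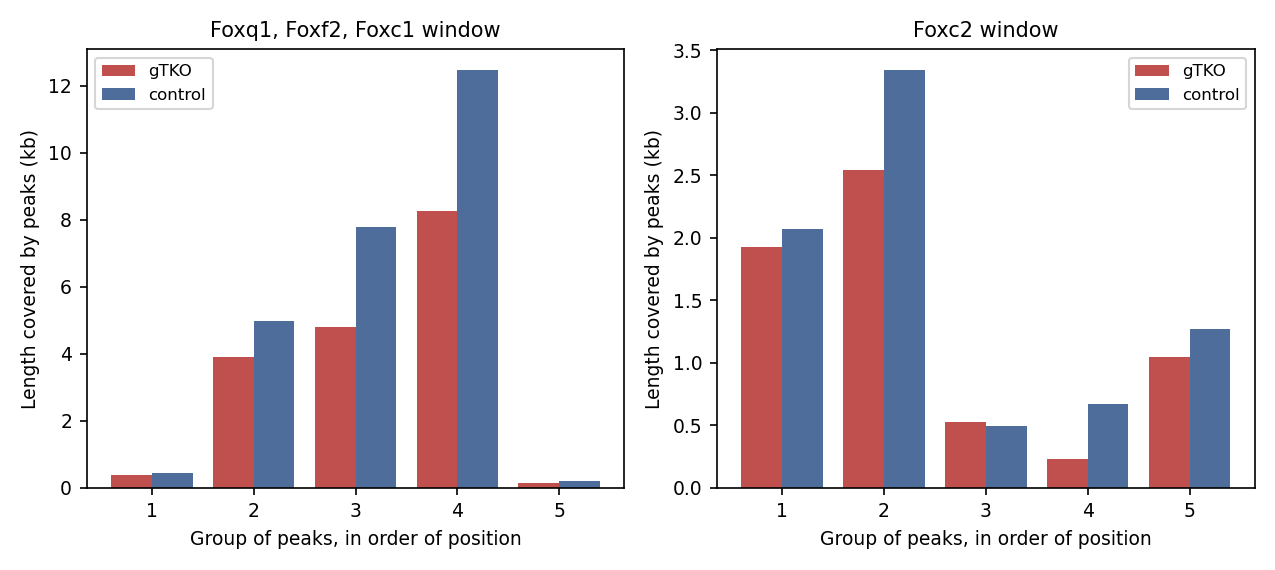
Length covered by peaks (kb) in each group of peaks, in order of position, for the gTKO list (red, left bar) and the control list (blue, right bar) in both windows. Each bar is a sum from 1 list with no error; the gTKO bar is the lower one in 9 of 10 groups, and in group 3 of the Foxc2 window it is the higher one, at 524 bp against 497 bp.

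The order of one-list regions along chromosome 13 differed between the groups. From low to high position, 19 runs of one class alternated, and all runs that were not shared were control-only. The second group opened with its widest region, followed by a run of 3 control-only regions between 31654139 and 31656665, of 150, 150 and 251 bp, and then by 2 shared regions. The third group opened with a control-only region of 271 bp (chr13:31703932-31704202). A further one of 208 bp (chr13:31711167-31711374) lay between 2 wide shared regions. The longest run, 5 control-only regions within 4822 bp (chr13:31718662-31723483), followed the widest region of the third group. Its members measured 257, 173, 164, 151 and 242 bp, and no gTKO region lay among them. In the fourth group the control-only regions were scattered, as 4 single ones and 1 pair. The single ones measured 239 bp (chr13:31888863-31889101), 461 bp (chr13:31894812-31895272) and 243 bp (chr13:31912000-31912242), and the remaining one lay at chr13:31906794-31906969. The pair measured 213 and 162 bp (chr13:31914098-31914877).

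Control-only regions were narrow in this window as in the whole list. Their median width was 210 bp, and 15 of 16 were under 300 bp wide. Over all placed chromosomes the median of control-only regions was 194 bp, and 83.0% were under 300 bp wide. The distance to the nearest gTKO region ranged from 68 to 5564 bp with a median of 632 bp, and it was within 1 kb for 9 of 16. Over all 15471 control-only regions the median distance was 3758 bp, and 29.0% lay within 1 kb. The window is dense in regions of both lists, and the part of density in these distances was not tested. The widest, of 461 bp, lay 210 bp from a gTKO region. The region farthest from any gTKO region was the one that opened the third group.

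The widest control region of each dense group was broken into pieces in gTKO cells. In the second group, the control region at chr13:31648623-31652458 measured 3836 bp and contained 3 gTKO regions, of 397, 2642 and 230 bp, which covered 85.2% of it. In the third group, the control region at chr13:31715746-31718640 measured 2895 bp and contained 3 gTKO regions, of 478, 241 and 1503 bp, which covered 76.8%. In the fourth group, the control region at chr13:31897802-31900700 measured 2899 bp and contained 2 gTKO regions, of 1397 and 777 bp, which left 489 bp between the pieces and 236 bp at the outer edges uncovered. The uncovered bases between pieces numbered 173 in the widest region of the second group and 183 in that of the third. Also in the fourth group, a control region of 1534 bp (chr13:31902509-31904042) contained 3 gTKO regions, of 162, 423 and 181 bp, which covered 49.9% of it. A control region of 987 bp (chr13:31892873-31893859) contained 2, of 533 and 213 bp, which covered 75.6%. Only the widest region of the fourth group had a gap of more than 200 bp between its pieces. Merging peaks within 200 bp would join the pieces of the others, and breaks were not counted after merging.

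In all, 5 of 38 control regions in this window (13.2%, interval 4.41 to 28.1%) overlapped 2 or more gTKO regions, beside 5.28% of all placed control regions. None of the 30 gTKO regions overlapped 2 or more control regions, beside 1.07% of all placed gTKO regions. Wide regions are broken more often. In the window 5 of 30 gTKO regions and 8 of 38 control regions were at least 1000 bp wide, beside 10.8% of all gTKO and 15.3% of all control regions. Of the 8 wide control regions 4 were broken, beside 21.5% of all control regions of at least 1000 bp. Widths above 1000 bp were not matched, and the broken ones included regions of 2895, 2899 and 3836 bp. The difference was not tested. The other 4 wide control regions had 1 gTKO partner each. They measured 1169 bp in gTKO and 1336 bp in control cells (chr13:31709714-31711049), 970 bp in gTKO and 1534 bp in control cells (chr13:31711441-31712974), 1307 bp in gTKO and 1456 bp in control cells (chr13:31889147-31890602), and 783 bp in gTKO and 1011 bp in control cells (chr13:31907108-31908118). In each of these the control region extended beyond the gTKO region on both sides.

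In 17 cases 1 gTKO region and 1 control region matched each other alone, and the gTKO region was narrower in 15 (88.2%, interval 63.6 to 98.5%), beside 79.5% of 37878 such pairs on all placed chromosomes. The median width was 342 bp in gTKO and 420 bp in control cells, and the median ratio within pairs was 0.791, beside 0.866 over all pairs. The gTKO region lay wholly within the control region in 13 of 17 pairs, beside 62.7% of all pairs. The gTKO start lay a median of 49.0 bp inside the control start and the gTKO end 46.0 bp inside the control end, beside 30.0 bp at either end over all pairs. The lowest ratio, 0.606, belonged to a pair of 183 bp in gTKO and 302 bp in control cells (control region chr13:31723502-31723803), just after the run of 5 control-only regions. The 2 pairs with a wider gTKO region were 342 bp in gTKO against 249 bp in control cells (gTKO region chr13:31659524-31659865, ratio 1.37) and 482 bp in gTKO against 464 bp in control cells (gTKO region chr13:31912435-31912916, ratio 1.04).

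**Figure D3:**
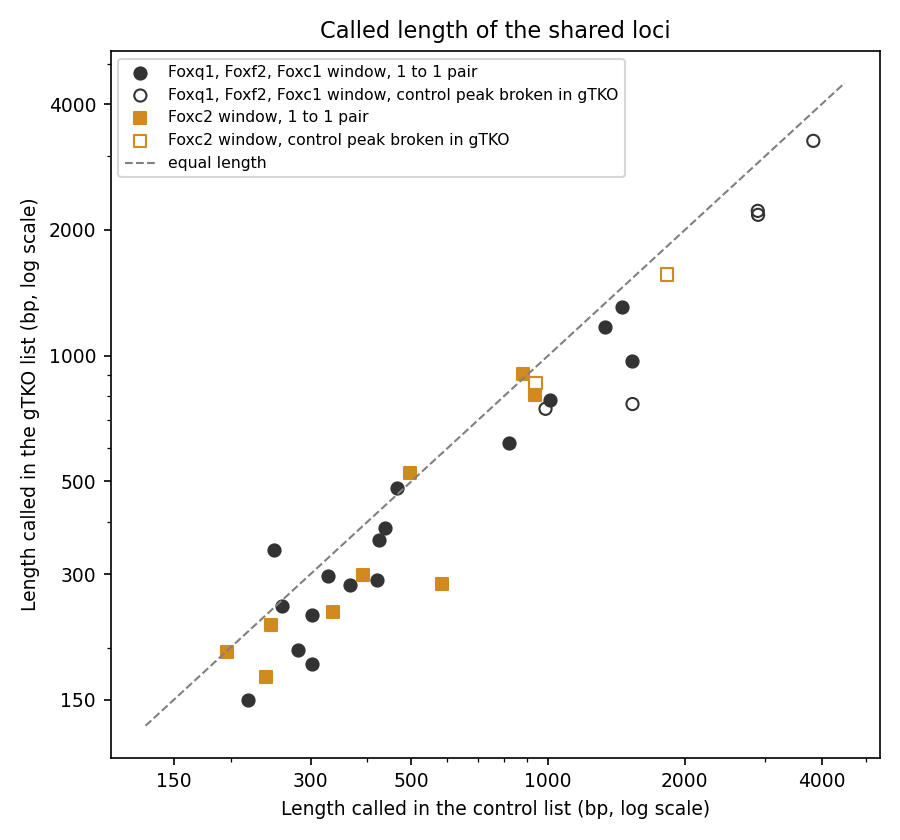
Length called at each shared locus in the gTKO list (vertical) against the control list (horizontal), both in bp on log scales, for the chromosome 13 window (circles) and the Foxc2 window (squares); open symbols are control peaks broken into pieces in gTKO, and the dashed line marks equal length. Of 33 shared loci, 29 lie below the line and 4 above it.

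The sequence called in control cells but not in gTKO cells amounted to 8520 bp in this window. Control-only regions held 41.2% of it, the edges of regions with 1 partner 23.9%, and regions broken into pieces 34.9%, of which the gaps between pieces were 12.5% and the outer edges 22.4%. Over all placed chromosomes, control-only regions held 40.5%, regions with 1 partner 49.8% and broken regions 9.67%. These shares are not matched for the width of the regions, and wide regions are broken more often. In the other direction, 130 bp were called in gTKO cells but not in control cells.

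The Foxc2 window on chromosome 8 held equally many regions in both lists as deposited, and the gTKO regions covered less sequence. Merging peaks within 200 bp, which joins the gTKO pieces of broken control regions, left 12 gTKO and 14 control regions. As deposited, the gTKO list held 14 regions with a mean width of 448 bp that covered 6267 bp. The control list held 14 regions with a mean width of 561 bp that covered 7848 bp. The length ratio was 0.799, close to that of the whole lists. Of the gTKO regions 1 was gTKO-only (7.14%, interval 0.181 to 33.9%), and of the control regions 3 were control-only (21.4%, interval 4.66 to 50.8%), and both intervals include the shares of the whole lists given above. The first 40 kb of the window, from 123.560 to 123.600 Mb, held no region.

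**Figure D4:**
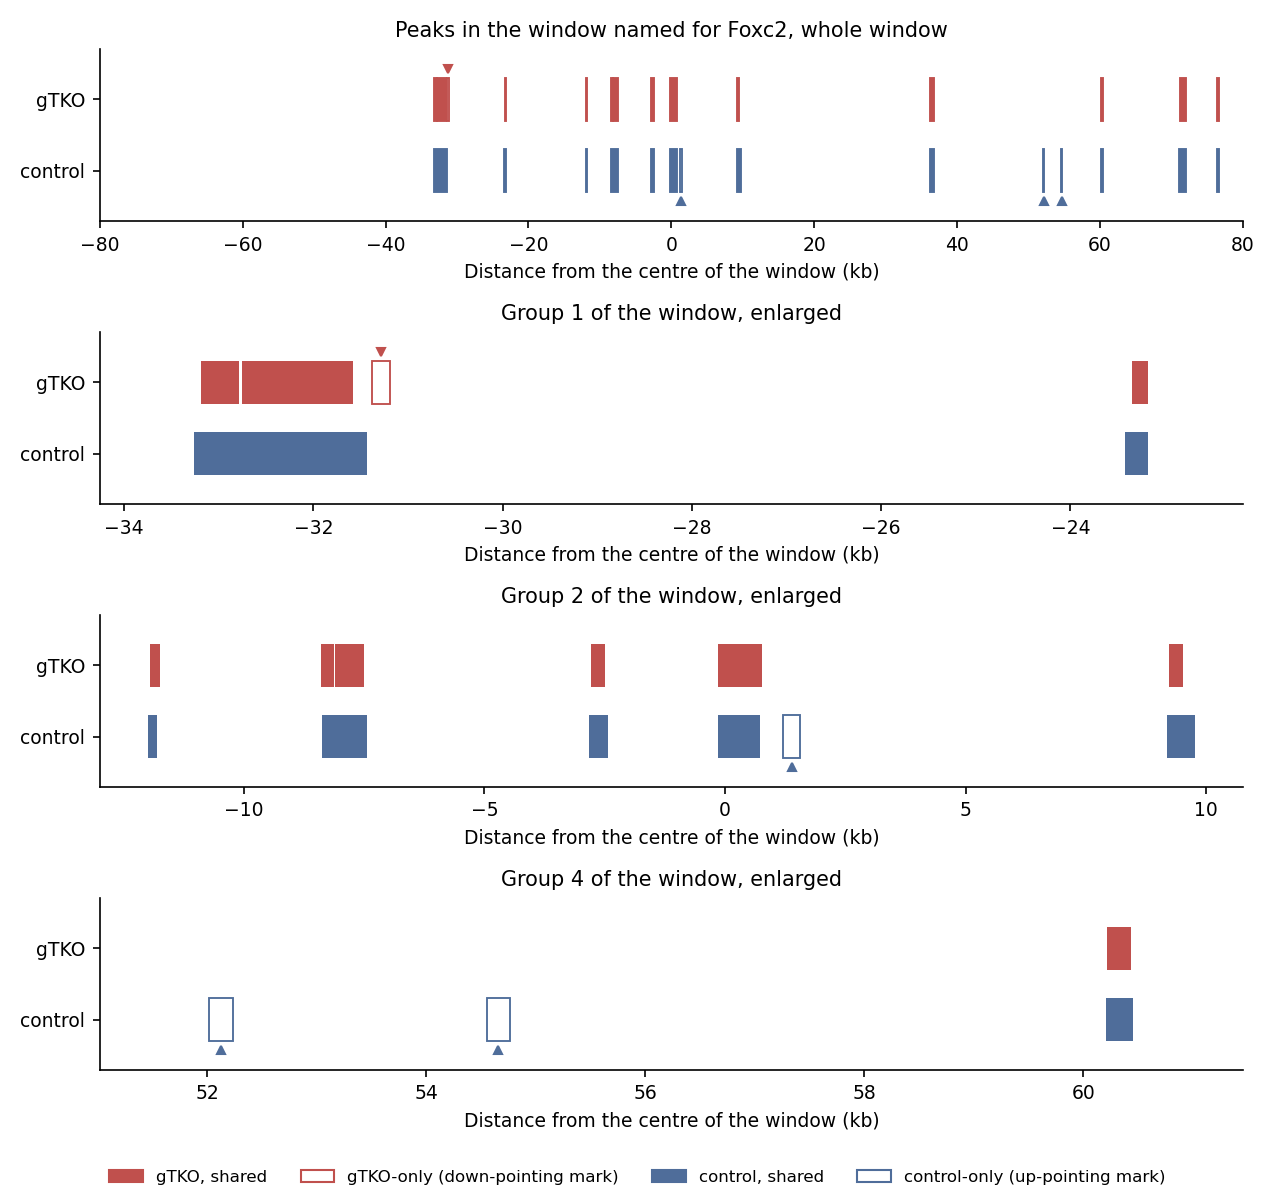
Positions of peaks in the Foxc2 window, in kb from the window's centre, for the gTKO list (upper track, red) and the control list (lower track, blue), with 3 of its 5 groups enlarged. Filled boxes overlap a peak of the other list and open boxes with a mark do not; the single gTKO-only peak lies beside the widest peak and the 3 control-only peaks lie farther right.

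In order of position, the gTKO-only region came first and the control-only regions after it. The gTKO-only region measured 190 bp (chr8:123608619-123608808) and lay 45 bp beyond the widest control region, which measured 1829 bp (chr8:123606745-123608573). That control region itself contained 2 gTKO regions, of 398 and 1166 bp, which covered 85.5% of it. The first control-only region measured 352 bp (chr8:123641209-123641560) and lay 443 bp from a gTKO region. The other two, of 219 bp (chr8:123692021-123692239) and 205 bp (chr8:123694557-123694761), stood next to each other, 7972 and 5450 bp from the nearest gTKO region. A second control region, of 938 bp (chr8:123631620-123632557), was also broken, into gTKO regions of 260 and 602 bp that covered 90.8% of it. Thus 2 of 14 control regions (14.3%, interval 1.78 to 42.8%) overlapped 2 gTKO regions, with gaps of 34 and 27 bp between the pieces. The interval includes the 5.28% of all placed control regions. Both gaps lay within the 200 bp used elsewhere to merge peaks.

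In 7 of 9 single pairs of the Foxc2 window (77.8%, interval 40.0 to 97.2%) the gTKO region was the narrower one, beside 79.5% of all pairs. The median ratio was 0.861, near that of all pairs. It was 1.02 in the 3 pairs in which both regions were at least 300 bp wide. That choice drops pairs whose gTKO region alone was narrower than 300 bp, such as 299 bp in gTKO against 391 bp in control cells. The lowest ratio, 0.486, belonged to a gTKO region of 284 bp against a control region of 584 bp (chr8:123649180-123649763), where 251 bp of the difference lay at the higher end. The gTKO region was slightly wider in 2 pairs, at 903 bp in gTKO against 881 bp in control cells (gTKO region chr8:123639863-123640765) and at 524 bp in gTKO against 497 bp in control cells (gTKO region chr8:123676274-123676797). Other shared regions measured 805 bp in gTKO and 935 bp in control cells (chr8:123711110-123712044), and 195 bp in gTKO and 196 bp in control cells (chr8:123628007-123628249). The sequence called in control cells alone was 1906 bp, of which control-only regions held 40.7%, regions with 1 partner 40.9% and broken regions 18.4%. The sequence called in gTKO cells alone was 325 bp.

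In both windows together, the regions called in 1 list alone were narrower than 500 bp. From 150 to 299 bp, 1 of 21 gTKO regions (4.76%, interval 0.120 to 23.8%) and 17 of 24 control regions (70.8%, interval 48.9 to 87.4%) had no partner, beside 19.8% of all gTKO and 52.5% of all control regions of that width. In the chromosome 13 window alone this was 0 of 13 gTKO regions (exact upper limit 24.7%) and 15 of 19 control regions (78.9%, interval 54.4 to 93.9%). In the Foxc2 window alone it was 1 of 8 gTKO regions (12.5%) and 2 of 5 control regions (40.0%, interval 5.27 to 85.3%). From 300 to 499 bp, 0 of 8 gTKO regions and 2 of 13 control regions had no partner, beside 4.28% of all gTKO and 19.1% of all control regions of that width. No wider region of either list lacked a partner in either window, where from 500 to 999 bp 0.136% of all gTKO and 3.65% of all control regions did, and from 1000 bp upwards 0 of all gTKO and 0.469% of all control regions.

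**Figure D5:**
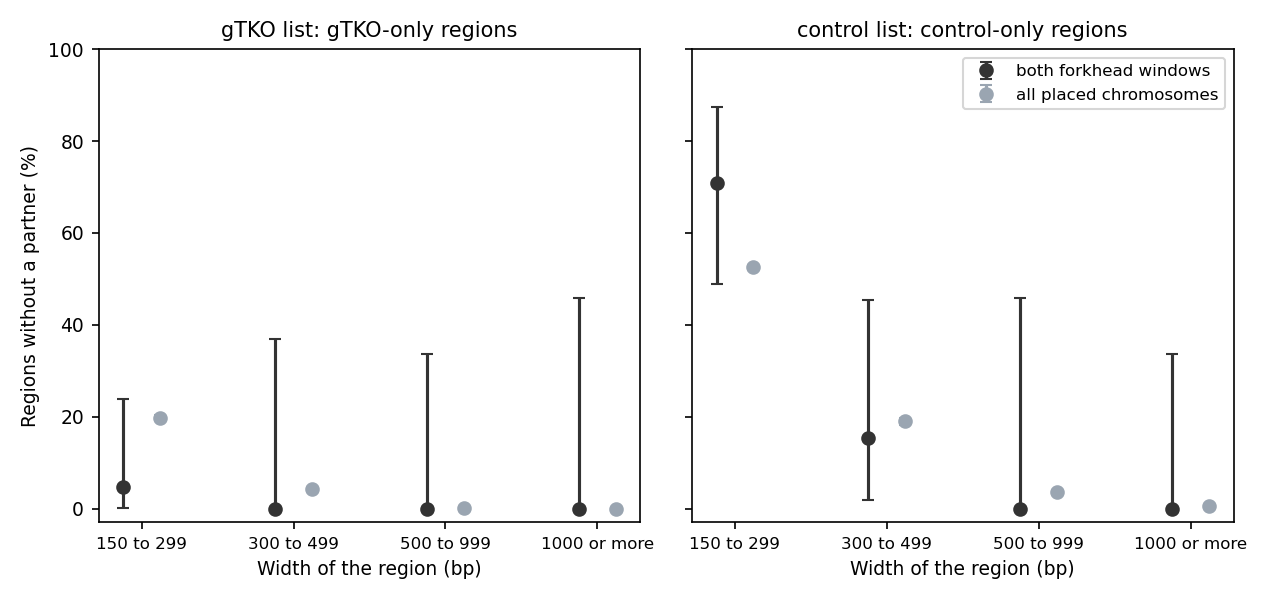
Share of regions without a partner in the other list (%), by width class in bp, in the gTKO list (left) and the control list (right), for both forkhead windows together (black) and all placed chromosomes (grey); bars are exact 95% intervals for counting error. In the narrowest class the windows' share is 4.76% in the gTKO list and 70.8% in the control list. The control share in that class is 78.9% in the chromosome 13 window and 40.0% in the Foxc2 window.

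To set the windows beside other stretches rich in regions, the placed chromosomes were divided on a fixed grid. Of the windows of 400 kb, 236 held at least 68 regions of both lists together, as many as the chromosome 13 window. Their control-only share had a median of 27.7% (quartiles 20.3 and 34.9%), and it was at least that of the Foxq1, Foxf2 and Foxc1 window in 41. Their length ratio of gTKO over control had a median of 0.727 (quartiles 0.675 and 0.785), and it was at or below the window's 0.676 in 60. Of the windows of 160 kb, 770 held at least 28 regions, as many as the Foxc2 window, with a median control-only share of 23.8% and a median length ratio of 0.752. In 453 of them the share was at least that of the Foxc2 window. In 523 of them the length ratio was at or below that of the Foxc2 window. These positions among dense stretches were computed only for the regions as deposited and the windows as defined. As given above, merging nearby peaks brought the control-only share of the chromosome 13 window to 27.6%, beside 23.7% of all control regions merged in the same way. The grid was not merged, so its median is not a match for this value. With the Foxc2 window extended by 50 kb at both ends, 7 of 22 control regions were control-only (31.8%) and the length ratio was 0.676. These windows and the values of the whole lists share the same 2 lists, and the difference between the windows was not tested, since regions of 1 list are not replicates.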

How the data were processed

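The deposited values are peak positions in 2 lists, 1 per genotype, with 3 columns (sequence name, start, end). They are not a score, count or signal. The labels of 3 libraries point to each list, and no source used here gives whether reads were pooled before calling. Per the submitters' processing notes, the build is mm9, and Bowtie2, Picard, MACS2 and bedtools are among the tools, without role or settings. The 16 RNA libraries of the series were not analysed here. Starts were written 1-based. Smallest width was 150 bp and the smallest gap within a list 11 bp. Overlaps, widths and exact 95% intervals were computed in Python 3.11.15 with numpy 2.4.6 and scipy 1.17.1, and figures with matplotlib 3.10.9. The overlap procedure was checked on an altered copy of the control list, with peaks dropped or split at random and the others trimmed. Placed chromosomes are 1 to 19, X and Y. Members, windows, lists and alternatives were chosen with earlier results of these data known. The rule for naming regions took every one-list region, every region of at least 1000 bp, every region with 2 or more partners and the extremes of the pairs. Other shared regions were named after their values were seen. Groups by 10 kb gaps, the division of unshared sequence and the grid of windows were chosen after the regions were seen. The planned promoter and marker checks need an mm9 annotation and were not run.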

Additional observations from a re-analysis of the deposited data

How the results depend on the processing

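In the chromosome 13 window the numbers of gTKO-only and control-only regions were 0 and 16. Requiring 50% of both regions to overlap gave 10 gTKO-only regions, since pieces of broken regions then lose their partner by construction. Extending the windows by 50 kb gave 1. Control-only regions were 1 of 19 among those of at least 300 bp and 8 of 29 after merging peaks within 200 bp, against 16 of 38. From 300 to 499 bp, 1 of 9 control regions in this window was control-only (11.1%), beside 19.1% of all control regions of that width. No wider one was control-only, so the window's observed share exceeded that of the whole list only under 300 bp. The interval from 300 to 499 bp, 0.281 to 48.2%, includes shares above that of the whole list, so these few regions cannot settle this. In the Foxc2 window, with 1 gTKO-only and 3 control-only regions, the 50% rule gave 4 gTKO-only regions. Accepting a partner within 200 bp gave 0, as did regions of at least 300 bp, which also left 1 control-only region. The longer window held 7 control-only regions of 22, against 3 of 14.

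The length ratio of gTKO over control for chromosome 13 was 0.668 with regions of at least 300 bp, 0.675 in the longer window and 0.674 after merging, against 0.676. For the Foxc2 window it was 0.652, 0.676 and 0.806 against 0.799, so this ratio depends on the window's edges. The 300 bp cut was made in each list separately and left 6 of 14 gTKO and 9 of 14 control regions. A shared locus with only its gTKO region under 300 bp then counts as control length alone, which lowers the ratio by construction. The median width ratio of pairs on chromosome 13 was 0.773 with the 50% rule, 0.783 with partners within 200 bp, 0.862 with regions of at least 300 bp and 0.758 after merging, against 0.791. For the Foxc2 window it was 0.813 with the 50% rule, 0.765 in the longer window and 0.874 after merging, against 0.861. With regions of at least 300 bp, which left 3 pairs, it was 1.02. This cut leaves out a pair whose gTKO region was under 300 bp even where its control region was wider. The value is thus selected on gTKO width and cannot show a reversal, and the same cut applies to the 0.862 of chromosome 13. Counting any overlap with a window changed none of these values. No paired analysis was possible because the 3 libraries of a genotype share 1 list, so leaving out a replicate was not possible either. Depth is unknown, and its effect was not tested.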
